A study of Mus musculus with 24 samples.

Results

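The mu-class glutathione S-transferases Gstm1 to Gstm7, the alpha-class enzyme Gsta4 and the metallothioneins Mt1 and Mt2 were followed in ventricle tissue of mouse hearts at 2 ages and in 2 genotypes. A gene was taken where a probe set of the array named it as its only gene, and where several did, the probe set with the highest mean over the 24 arrays stood for it. Of the 10 genes, 9 could be measured in this way, out of 18819 genes tested, since the probe set naming Gstm5 also names another gene. The 24 hearts formed 4 groups of 6, all of the C57/Bl6 strain. Wild type (WT) and knockout (KO) hearts were taken from newborn mice, labelled day 1 to 2, and from young mice, labelled day 30. The KO mice lacked caspase-7 in all tissues and carried floxed caspase-3, which was deleted by Cre recombinase under a cardiac Nkx2.5 promoter and enhancer. Caspase-3 was therefore lost in the myocardium and kept in cells outside the cardiac lineage, and the study describes some caspase-3 protein remaining in the neonatal KO heart. The alleles of Cre and of floxed caspase-3 in the WT arrays are not given in the sources used here. Each array is labelled as a separate sample, with about 3 males and 3 females in a group, but the sex of a given sample is not stated.

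Glutathione S-transferases join the thiol of glutathione to reactive electrophiles, among them products of lipid peroxidation and many drugs, which makes these compounds easier to export and to detoxify. The mu-class genes form a cluster of closely related copies on mouse chromosome 3, and several of them are induced by the oxidative stress factor NRF2. Gsta4, on chromosome 9, encodes the enzyme that clears hydroxynonenal, a toxic aldehyde formed from oxidized membrane lipids. Metallothioneins are small cysteine-rich proteins that bind zinc and copper. Mt1 and Mt2 lie next to each other on chromosome 8 and are switched on by zinc through the factor MTF-1, by glucocorticoids and by stress.

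The values are RMA log2 signals, so a difference of 1 is a 2-fold change, and the level of a probe set cannot be set against that of another. Array medians lay between 4.24 and 4.50, and the mean correlation of an array with its own group lay between 0.986 and 0.996. The mean of 8 cardiomyocyte markers was 12.20 to 12.35 in newborn and 11.91 to 12.12 in young arrays, without overlap. That mean does not give the direction of most of these markers. At an adjusted p under 0.05 by limma, 5 of them rose with age and 1 fell in WT hearts. In KO hearts 4 rose and 1 fell. Over all genes 19.2% rose and 27.9% fell in WT hearts, and 34% and 25% in KO hearts. The median log2 difference of the 8 markers was 0.14 in WT and 0.17 in KO hearts. A few arrays stood apart. Newborn WT array 4 and newborn KO array 4 lay with the other genotype for Ndrg4, which separates the remaining newborn arrays. Newborn KO arrays 1 and 2 carried hepatocyte transcripts, with a mean over 4 markers of 7.34 and 7.90 against 3.34 to 4.28 in the other newborn arrays. In young hearts, atrial markers ran from 5.08 to 9.43 in WT and from 6.03 to 10.59 in KO arrays. The newborn genotype calls are given with and without the newborn arrays named here. Most other results are given with all arrays only. In whole tissue, fewer cells of a type and less RNA per cell cannot be told apart.

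Most of these genes changed between the newborn and the young heart. In WT hearts Gstm1, Gstm2, Gstm3, Gstm7 and Gsta4 rose with age, and Gstm6 and Mt2 fell. In KO hearts Gstm1, Gstm2, Gstm3, Gstm4 and Gstm7 rose and Mt2 fell. Gstm3 is counted here by its brightest probe set, whose identity was not tested. A dimmer one passed in WT (adjusted p = 0.0351 by limma) and not in KO hearts (adjusted p = 0.0710 by limma). By limma with adjustment over all 18819 genes at an adjusted p under 0.05, 5 of 9 genes rose and 2 fell in WT hearts, where 19.2% of all genes rose and 27.9% fell. In KO hearts 5 rose and 1 fell, beside 34% and 25% of all genes. The young and newborn arrays did not overlap for 5 genes that were higher and 1 that was lower with age in WT hearts, as for 11.5% and 18.2% of all genes, and for 5 and 0 in KO hearts, as for 15.9% and 15.1%. The median log2 difference of the 9 genes was 0.37 in WT and 0.27 in KO hearts, beside 0.0024 and 0.10 over all genes. These shares depended on scaling. Centring each array on its median moved the median of all genes to 0.26 in WT and 0.27 in KO hearts, and turned the split of calls from 3612 higher and 5242 lower to 9842 and 2989 in WT, and from 6398 and 4712 to 10029 and 3011 in KO hearts.

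Markers of other cell types also shifted with age. In WT hearts 5 of 6 atrial, 5 of 5 epicardial and 5 of 7 fibroblast markers fell, with median log2 differences of -3.05, -2.18 and -1.54, and 5 of 5 macrophage markers rose, their mean signal going from 6.65 to 6.95 in newborn to 7.77 to 8.23 in young WT arrays. In KO hearts 1 atrial, 3 epicardial and 3 fibroblast markers fell, 1 fibroblast marker rose and 5 of 5 macrophage markers rose. Their part in the age differences of the 9 genes was not tested.

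Gstm1, a mu-class enzyme, had a log2 signal of 8.66 at lowest, 9.07 at the median and 9.32 at highest in newborn WT hearts, and of 10.05, 10.21 and 10.31 in young WT hearts. In KO hearts these levels were 9.05, 9.51 and 9.86 in newborns and 10.10, 10.32 and 10.59 in young mice. All 12 young arrays lay above all 12 newborn arrays. The log2 difference between ages was 1.17 (SE 0.12, adjusted p = 6.24e-09 by limma) in WT hearts, a 2.25-fold rise, and 0.83 (SE 0.12, adjusted p = 1.55e-06 by limma) in KO hearts, a 1.78-fold rise.

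Gstm7, another enzyme of the mu cluster, had a log2 signal of 8.20 at lowest, 8.35 at the median and 8.58 at highest in newborn WT hearts and of 9.11, 9.33 and 9.49 in young WT hearts. The newborn KO levels were 8.20, 8.55 and 8.83, and the young KO levels were 9.16, 9.31 and 9.53. As for Gstm1, the ages did not overlap in either genotype. The log2 rise was 0.95 (SE 0.096) in WT and 0.80 (SE 0.096) in KO hearts. Gstm2 rose in the same manner. Its log2 signal spanned 8.37 to 8.78 in WT newborns, 8.32 to 8.78 in KO newborns, 9.14 to 9.58 in young WT mice and 9.36 to 9.87 in young KO mice, and the log2 difference between ages was 0.70 in WT and 0.91 in KO hearts (SE 0.097 for both).

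**Figure D1:**
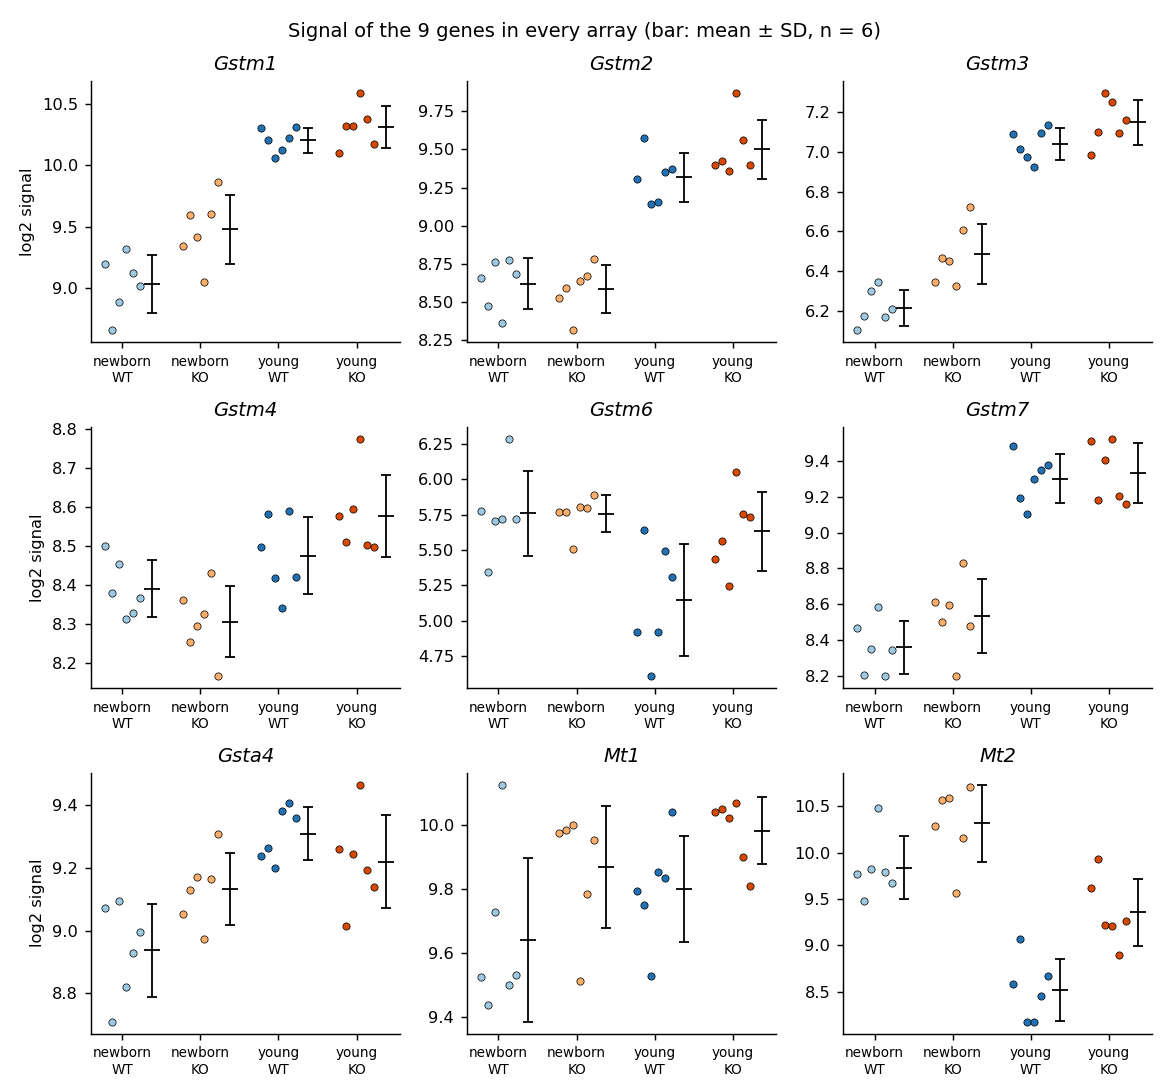
Log2 signal of each of the 9 genes in every array (points, array 1 to 6 from left to right within a group) in WT and KO hearts of newborn and young mice, with the mean and SD of 6 arrays as bars; the vertical axes differ between panels and do not start at 0. For Gstm1 the 12 young arrays (10.05 to 10.59) lie above the 12 newborn arrays (8.66 to 9.86), while for Mt2 the 6 young WT arrays (8.18 to 9.07) lie below the 6 newborn WT arrays (9.47 to 10.48).

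Gstm3 also rose by the rule's probe set, with a log2 signal of 6.10 to 6.34 in WT newborns, 6.33 to 6.72 in KO newborns, 6.92 to 7.13 in young WT mice and 6.99 to 7.30 in young KO mice. The log2 difference between ages was 0.82 in WT and 0.66 in KO hearts (SE 0.070 for both). The identity of this probe set was not tested. Among the 20 probe sets nearest to it in the order of their identifiers, 19 name genes of chromosome 10, whereas Gstm3 lies on chromosome 3. A dimmer probe set for Gstm3 that lies among those of the mu cluster had mean log2 signals of 3.03 ± 0.15 in newborn WT and 3.42 ± 0.13 in young WT hearts (SD, n = 6). By that probe set the log2 difference between ages was 0.38 (SE 0.14, adjusted p = 0.0351 by limma) in WT and 0.31 (SE 0.14, adjusted p = 0.0710 by limma) in KO hearts, and the WT call was lost without the newborn arrays numbered 4 (0.35, adjusted p = 0.0825).

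The remaining transferases moved less or in the other direction. Gstm6 had a log2 signal of 5.35 at lowest, 5.72 at the median and 6.29 at highest in newborn WT hearts and of 4.61, 5.11 and 5.64 in young WT hearts, and the groups overlapped. It fell by 0.61 on the log2 scale in WT hearts (SE 0.16, adjusted p = 0.00228 by limma). In KO hearts the log2 difference was -0.13 (SE 0.16, adjusted p = 0.499 by limma), and its sign turned under median centring (0.048) and a new quantile normalization (0.054). Gstm4 stood at 8.31 to 8.50 in WT newborns, 8.17 to 8.43 in KO newborns, 8.34 to 8.59 in young WT mice and 8.50 to 8.78 in young KO mice. It rose by 0.27 on the log2 scale in KO hearts (SE 0.061, adjusted p = 6.80e-04 by limma), while the WT difference of 0.085 (SE 0.061, adjusted p = 0.278 by limma) passed after median centring (0.34) and quantile normalization (0.14). Gsta4 was at 8.71 to 9.10 in newborn WT and at 9.20 to 9.41 in young WT hearts, without overlap, a log2 rise of 0.37 (SE 0.077, adjusted p = 2.35e-04 by limma). In KO hearts its levels were 8.97 to 9.31 and 9.02 to 9.47. The log2 difference of 0.087 (SE 0.077, adjusted p = 0.327 by limma) passed under median centring (0.26). Median centring also moved the median of all genes, to 0.26 in WT and 0.27 in KO hearts, and the Gsta4 value in KO hearts lay below the latter.

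Mt2 fell with age while its neighbour Mt1 did not. In newborn WT hearts the log2 signal of Mt2 was 9.47 at lowest, 9.78 at the median and 10.48 at highest, and in young WT hearts it was 8.18, 8.52 and 9.07. In newborn KO hearts it was 9.56, 10.43 and 10.71, and in young KO hearts 8.90, 9.24 and 9.93. The WT ages did not overlap, and in KO hearts the highest young arrays lay above the lowest newborn array, number 4. Mt2 fell by 1.32 on the log2 scale in WT hearts (SE 0.20, adjusted p = 3.79e-06 by limma), to 0.402 of the newborn signal, and by 0.96 in KO hearts (SE 0.20, adjusted p = 2.36e-04 by limma), to 0.515 of it.

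Mt1 was at 9.44, 9.53 and 10.13 (lowest, median and highest log2 signal) in newborn WT and at 9.53, 9.81 and 10.04 in young WT hearts. Its levels in KO hearts were 9.51, 9.96 and 9.999 in newborns and 9.81, 10.03 and 10.07 in young mice. All ages overlapped, and the log2 difference between ages was 0.16 (SE 0.11, adjusted p = 0.234 by limma) in WT and 0.11 (SE 0.11, adjusted p = 0.353 by limma) in KO hearts. Both passed as rises after median centring (0.42 and 0.29), which also moved the median of all genes, to 0.26 and 0.27. The WT rise passed without newborn WT array 4 (0.26, adjusted p = 0.0242 by limma).

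The difference between Mt2 and Mt1 within an array does not depend on the scaling of that array by a constant. The test was chosen after the values had been seen. This log2 difference averaged 0.20 ± 0.12 in WT newborns, 0.45 ± 0.25 in KO newborns, -1.28 ± 0.33 in young WT mice and -0.62 ± 0.33 in young KO mice (SD, n = 6). It dropped by 1.47 between ages in WT and by 1.07 in KO hearts (exact two-sided permutation test, p = 0.00216 for each, the smallest that 924 splits allow; 0.00433 after Benjamini-Hochberg adjustment over 4 comparisons). In young hearts it was 0.65 higher in KO than in WT (exact permutation p = 0.00866, adjusted 0.0115), and in newborn hearts 0.25 higher (exact permutation p = 0.0584, adjusted 0.0584). The 2 metallothioneins thus changed unequally in these arrays.

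**Figure D2:**
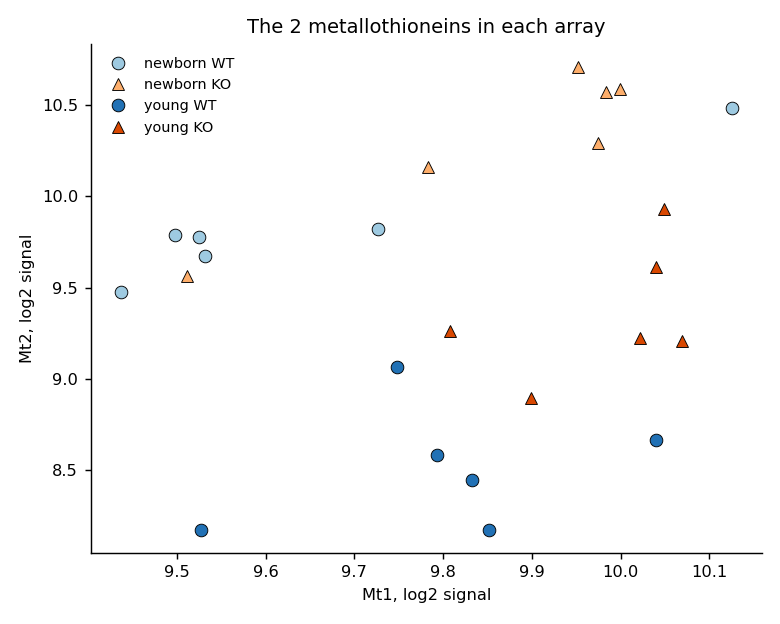
Log2 signal of Mt2 (vertical axis) against log2 signal of Mt1 (horizontal axis), each point being 1 of 24 arrays, with circles for WT and triangles for KO hearts and darker colours for young mice. Mt1 spans 9.44 to 10.13 over all arrays, while Mt2 reaches 10.71 in newborn hearts and goes down to 8.18 in young WT hearts.

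The promoters of this pair are shown because the 2 genes lie side by side and yet their signals moved apart. The windows are RefSeq sequence of the build GRCm38.p6, on the plus strand, from 250 bases before the annotated start to 30 bases after it, at chr8:94178839-94179118 for Mt1 and chr8:94172368-94172647 for Mt2. Capitals mark matches to the core of the metal response element, TGCACNC or TGCGCNC on either strand, the site type bound by MTF-1.
Mt1: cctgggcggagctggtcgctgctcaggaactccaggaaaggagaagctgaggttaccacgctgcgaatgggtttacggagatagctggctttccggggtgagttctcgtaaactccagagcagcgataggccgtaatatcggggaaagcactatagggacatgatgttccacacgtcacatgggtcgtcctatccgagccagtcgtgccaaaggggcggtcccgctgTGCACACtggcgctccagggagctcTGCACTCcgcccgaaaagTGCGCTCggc
Mt2: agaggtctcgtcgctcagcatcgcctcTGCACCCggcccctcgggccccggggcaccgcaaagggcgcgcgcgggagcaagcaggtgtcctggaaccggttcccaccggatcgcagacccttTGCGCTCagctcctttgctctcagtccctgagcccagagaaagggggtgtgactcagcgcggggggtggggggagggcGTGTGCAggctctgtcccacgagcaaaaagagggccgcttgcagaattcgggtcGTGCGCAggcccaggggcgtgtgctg
The Mt1 window held 3 such matches, starting at positions -23, 3 and 21 from the annotated start, and the Mt2 window held 4, at -223, -128, -50 and 5. Whether transcription begins at the annotated starts in these hearts was not tested. Bases outside the windows were not searched, so these counts do not compare the whole promoters of the 2 genes. A metal response element match was present in 24.1% of 32851 promoter windows of this length. The palindrome of the glucocorticoid response element, GNACA and TGTNC with 3 bases between them, present in 0.435% of windows, was matched in the Mt1 window at -94 and had no match in the Mt2 window. The core of the antioxidant response element, TGAC and GC with 3 bases between them, read on both strands and present in 11.5% of windows, was matched in the Mt2 window at -79. Of the measured transferases, Gstm1 and Gstm4 had a metal response element match and Gstm7 an antioxidant response element match, and the windows of Gstm2, Gstm3 and Gstm6 matched none of these motifs. The window of Gstm5, whose signal is not reported, matched both elements. These are matches of letters and no binding was measured. Windows were found for 8 of the 9 measured genes, all but Gsta4.

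Between genotypes, in young hearts, Mt2 was the gene that passed, higher in KO than in WT hearts. Its log2 signal was 8.18 at lowest, 8.52 at the median and 9.07 at highest in WT and 8.90, 9.24 and 9.93 in KO hearts. WT array 2 (9.07) lay above KO array 5 (8.90), and otherwise the KO arrays were higher. The log2 difference was 0.84 (SE 0.20, adjusted p = 0.0365 by limma), 1.79-fold, and 0.67% of all genes were called higher and 0.351% lower in this comparison. That is 126 genes higher and 66 lower, which became 74 and 105 after median centring and 114 and 161 after quantile normalization.

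The call of Mt2 was close to the threshold. It was lost when any of young WT arrays 1, 3, 4, 5 and 6 or young KO arrays 1, 2 and 6 was left out (adjusted p = 0.0502 to 0.0996 by limma), with a log2 difference of 0.72 at least. It was also lost with a variance trend and robust moderation (adjusted p = 0.0539), with all probe sets tested (adjusted p = 0.0638) and without newborn KO arrays 1 and 2 (adjusted p = 0.0554), all by limma. Young hearts also differed in markers of atrial, smooth muscle, epicardial and fibroblast cells. All 6 measured atrial markers were higher in KO hearts at an unadjusted p under 0.05, where 10.4% of all genes were higher and 4.57% lower, with a median log2 difference of 2.20 and a range of their mean signal of 5.08 to 9.43 in WT and 6.03 to 10.59 in KO arrays. The 3 measured adipocyte markers ranged in their mean from 3.66 to 8.13 in WT and from 3.89 to 7.80 in KO arrays. Of the smooth muscle markers 3 of 4, of the epicardial 4 of 5 and of the fibroblast 6 of 7 were also higher in KO hearts at an unadjusted p under 0.05, with median log2 differences of 1.67, 1.20 and 0.71, and 0 markers of these lists passed after adjustment. The mean signal ran from 6.90 to 9.22 in WT and 7.32 to 9.99 in KO arrays for smooth muscle, from 4.48 to 7.49 and 5.93 to 8.30 for epicardial, and from 8.09 to 9.79 and 8.17 to 10.10 for fibroblast markers. WT array 2 and KO array 2, which were highest in both the atrial and the adipocyte marker mean in their groups, were also highest in Mt2. The next arrays in the atrial mean did not keep this order. KO array 5, at 10.39 in the atrial mean, was the lowest of its group in Mt2 (8.90). WT array 5, at 8.26, had 8.45 in Mt2, below WT arrays 1 (8.58) and 6 (8.67). With the mean of 5 atrial markers, Nppa left out, as a covariate over the 12 young arrays, the log2 difference of Mt2 was 0.60 (adjusted p = 0.418 by limma), and with the adipocyte marker mean 0.69 (adjusted p = 0.0894), against 0.84 (adjusted p = 0.0967) in these 12 arrays with no covariate. The study calls Nppa a marker of myocyte hypertrophy, and it relates higher smooth muscle isoforms in young KO hearts to hypertrophy. Whether the marker transcripts came from ventricle or from other tissue was not tested. The part of these markers in the Mt2 result was not otherwise tested.

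The other genes did not pass in young hearts. Gstm6 had the next largest difference, with a log2 signal of 4.61, 5.11 and 5.64 (lowest, median and highest) in WT and of 5.25, 5.65 and 6.05 in KO hearts. The groups overlapped, and the log2 difference was 0.48 (SE 0.16, adjusted p = 0.135 by limma). Without young WT array 2 it was 0.58 (adjusted p = 0.0334) and without young KO array 3 it was 0.56 (adjusted p = 0.0484). Mt1 differed by 0.18 (SE 0.11, adjusted p = 0.430 by limma). Gstm1, Gstm2, Gstm3, Gstm4 and Gstm7 had log2 differences of 0.031 to 0.18 and Gsta4 of -0.088, and the sign for Gstm7 turned under median centring (-0.037). Young KO array 4 was the highest of its group for 7 of the 9 genes and young WT array 3 the lowest of its group for 7.

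**Figure D3:**
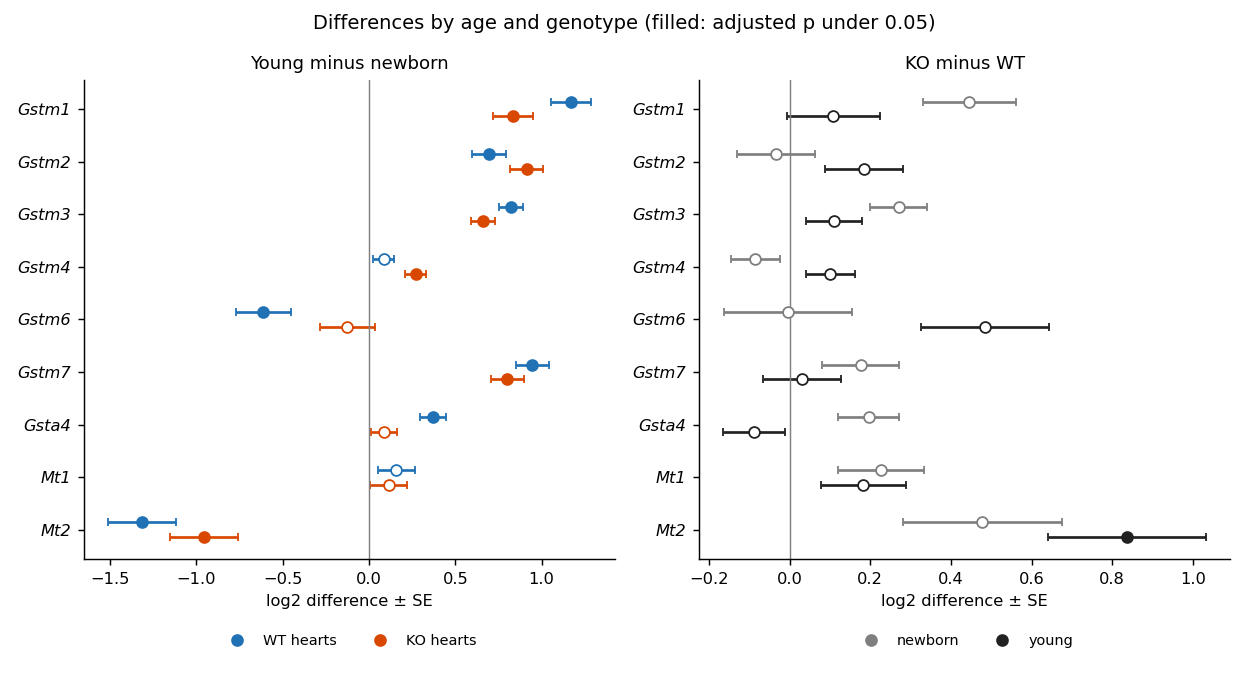
Log2 difference (horizontal axis, point) with its standard error from limma (bar) for each of the 9 genes, on the left between young and newborn hearts in WT and KO mice and on the right between KO and WT hearts in newborn and young mice; filled points have an adjusted p under 0.05. Gstm1 has the largest rise with age (1.17 in WT) and Mt2 the largest fall (-1.32 in WT), and on the right the young Mt2 difference (0.84) is the filled point.

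In newborn hearts 0 of 9 genes passed by limma, as did 0% of all genes in either direction. At an unadjusted p under 0.05, 5 of the 9 genes were higher in KO hearts (Gstm1, Gstm3, Gsta4, Mt1 and Mt2) and 0 lower, beside 1.45% of all genes higher and 7.62% lower. Mt2 differed by 0.48 (SE 0.20, adjusted p = 0.480 by limma) and Gstm1 by 0.45 (SE 0.12, adjusted p = 0.301 by limma) on the log2 scale. Gstm3 differed by 0.27 (SE 0.070) by the rule's probe set and by 0.062 (SE 0.14, adjusted p = 0.926 by limma) by the dimmer probe set of the mu cluster. Mt1 differed by 0.23 (SE 0.11) and Gsta4 by 0.20 (SE 0.077). Gstm2 at -0.034, Gstm4 at -0.085, Gstm6 at -0.0036 and Gstm7 at 0.18 had unadjusted p-values above 0.05, and the signs of Gstm2 and Gstm6 turned when an array was left out.

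The arrays numbered 4 carried much of the overlap between the newborn groups. For Mt2, newborn WT array 4 had a log2 signal of 10.48 against 9.47 to 9.82 in the other WT arrays, and newborn KO array 4 had 9.56 against 10.16 to 10.71 in the other KO arrays. For Mt1 these values were 10.13 against 9.44 to 9.73 in WT and 9.51 against 9.78 to 9.999 in KO hearts. For Gstm1 they were 9.32 against 8.66 to 9.20 and 9.05 against 9.34 to 9.86. Each of these arrays thus lay within or next to the range of the other genotype. The same was seen for Ndrg4, at 9.21 against 9.89 to 10.07 in WT and 10.03 against 8.90 to 9.42 in KO hearts. Whether these arrays carry the right label was not tested.

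Without both arrays, 4 of 9 genes passed as higher in newborn KO hearts, by limma beside 482 of all genes (117 higher and 365 lower). The log2 difference was 0.59 for Gstm1 (adjusted p = 0.00397), 0.33 for Gstm3 (adjusted p = 0.0164), 0.39 for Mt1 (adjusted p = 0.00956) and 0.76 for Mt2 (adjusted p = 0.0164). By the dimmer Gstm3 probe set it was 0.036 (SE 0.16, adjusted p = 0.955), an alternative chosen after seeing the data. As the arrays were singled out by their values, these calls are a description of the other 10 newborn arrays. Without the newborn KO arrays 1 and 2, which held hepatocyte transcripts, 0 of 9 genes passed, with log2 differences of 0.45 for Gstm1 and 0.42 for Mt2. Alb, the plasma protein albumin of liver cells, stood at 9.93 and 10.42 in these 2 arrays. Without all 4 arrays, Gstm1 (0.65, adjusted p = 0.0117) and Gstm3 (0.40, adjusted p = 0.0182) passed, and Mt1 (0.37, adjusted p = 0.0704) and Mt2 (0.78, adjusted p = 0.0607) did not.

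**Figure D4:**
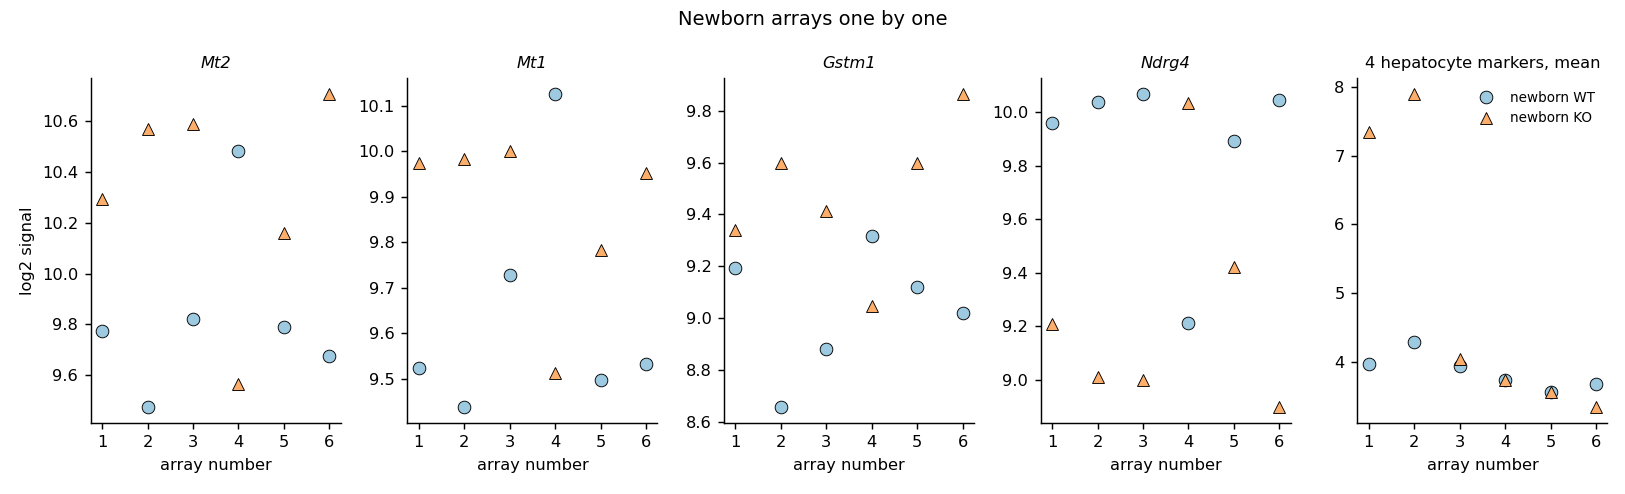
Log2 signal (vertical axes, not starting at 0) of Mt2, Mt1, Gstm1, Ndrg4 and the mean of 4 hepatocyte markers in each newborn array (horizontal axis, array number, not used here to pair the genotypes), with circles for WT and triangles for KO hearts. The arrays numbered 4 change places in Mt2 (10.48 in WT and 9.56 in KO), Mt1, Gstm1 and Ndrg4, and KO arrays 1 and 2 stand at 7.34 and 7.90 in the hepatocyte markers.

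The effect of the knockout was not shown to differ between ages for any of these genes. In the interaction of age and genotype 0 of 9 passed by limma, beside 0% of all genes higher and 0.0106% lower. At an unadjusted p under 0.05, the KO minus WT difference of Gstm4 and Gstm6 was higher in young than in newborn hearts. That of Gstm1 and Gsta4 was lower, beside 10.9% higher and 2.04% lower of all genes. The difference changed sign from newborn to young hearts for Gstm4 (-0.085 to 0.10) and Gsta4 (0.20 to -0.088). The interaction on the log2 scale was 0.49 for Gstm6 (SE 0.22, adjusted p = 0.370), -0.34 for Gstm1 (SE 0.16, adjusted p = 0.387), -0.28 for Gsta4 (SE 0.11, adjusted p = 0.305) and 0.19 for Gstm4 (SE 0.087, adjusted p = 0.373). For Mt2 it was 0.36 (SE 0.28, adjusted p = 0.601), although its KO effect passed in young and not in newborn hearts. Without the 2 newborn arrays numbered 4 the interaction was 0.080 for Mt2 (adjusted p = 0.904 by limma). For Gstm1 it was then -0.48 (adjusted p = 0.145 by limma), and 0 of 9 genes passed.

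Other genes of glutathione and metal handling were counted in the same way, and their counts with age stand beside 19.2% of all genes higher and 27.9% lower in WT hearts and 34% and 25% in KO hearts. Their counts between genotypes at an unadjusted p under 0.05 stand beside 1.45% higher and 7.62% lower in newborn KO hearts. In young KO hearts these shares were 10.4% and 4.57%, and 0.67% and 0.351% after adjustment. Of 12 other soluble transferases measured, 0 passed between genotypes at either age by limma, with 1 higher and 1 lower in newborn KO hearts and 0 in young hearts at an unadjusted p under 0.05. With age 5 rose and 1 fell in WT hearts and 7 rose and 1 fell in KO hearts. Gstk1, a transferase of mitochondria and peroxisomes, had a log2 signal of 8.50 to 8.95 in newborn WT and 10.57 to 10.89 in young WT hearts and rose 4.02-fold, a log2 difference of 2.01 (SE 0.10). Gstt1, of the theta class, rose by 1.58 and Gsto1, of the omega class, by 1.11 on the log2 scale in WT hearts, while Gstcd fell by 0.71. Of the 6 membrane-bound members, 3 rose and 1 fell in each genotype, and between genotypes 0 passed or had an unadjusted p under 0.05. The largest rises in WT hearts were those of Alox5ap, which presents arachidonic acid for leukotriene synthesis (1.23), and Mgst3 (0.97).

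Of 25 genes of glutathione synthesis, recycling and use, 8 rose and 7 fell with age in WT hearts and 7 rose and 9 fell in KO hearts. Abcc1, a pump that exports glutathione conjugates, rose by 2.04 on the log2 scale in WT hearts, from 5.86 to 6.13 in newborn to 7.99 to 8.21 in young arrays. Ggct, which splits gamma-glutamyl amino acids, rose by 1.93, and Gpx7, a peroxidase of the secretory pathway, fell by 1.03. Between genotypes 1 of the 25 passed, in young hearts, where 5 were higher and 5 lower in KO hearts at an unadjusted p under 0.05, and in newborn hearts 0 passed, with 3 higher and 1 lower at that level. Slc3a2, the heavy chain of the cystine and amino acid transporters, had a log2 signal of 9.43 at lowest, 9.69 at the median and 9.91 at highest in young WT hearts, whereas in young KO hearts it was 10.05, 10.11 and 10.29. The groups did not overlap, and the share of all genes without overlap is not given here for this comparison. Slc3a2 was higher in KO hearts by 0.45 (SE 0.087, adjusted p = 0.0118 by limma).

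Of 25 genes of the NRF2 pathway, 11 rose and 5 fell with age in WT hearts, 15 rose and 5 fell in KO hearts, and 0 passed between genotypes at either age by limma. At an unadjusted p under 0.05, 3 were higher and 1 lower in newborn KO hearts, beside 1.45% and 7.62% of all genes. In young KO hearts 5 were higher and 0 lower, beside 10.4% and 4.57%. Nqo1, a quinone reductase, rose with age by 1.70 on the log2 scale in WT hearts and by 1.62 in KO hearts, and Me1, which makes NADPH, by 1.17 and 1.16. Hmox1, which breaks down heme, fell by 0.95 and 0.89. Of 24 other genes of metallothioneins and zinc transport, 5 rose and 12 fell in WT hearts and 6 rose and 10 fell in KO hearts, with 0 passing between genotypes by limma and, at an unadjusted p under 0.05, 0 in newborn hearts and 5 higher and 1 lower in young KO hearts. Mt3, a metallothionein best known from the brain, fell by 1.21 in WT and by 0.66 in KO hearts on the log2 scale, and Slc39a8, a zinc importer, fell by 2.13 in WT hearts and fell by 1.42 in KO hearts, whereas Slc39a14, another zinc importer, rose by 1.23 and 1.24. Mtf1, the factor that senses zinc, rose by 0.41 and 0.35.

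Genes that respond to glucocorticoids, as Mt1 and Mt2 do, were listed as well. The list was chosen with earlier results of these data known, and it holds Fam107a, which the study reports as raised in KO hearts. Its counts beside the shares of all genes therefore describe the list and are no test of a glucocorticoid response. Of 18 measured, 3 passed as higher in young KO hearts and 0 as lower, beside 0.67% and 0.351% of all genes, and 13 were higher and 1 lower at an unadjusted p under 0.05, beside 10.4% and 4.57%. Fam107a rose 2.82-fold (adjusted p = 0.00379 by limma), with a log2 signal of 4.45 to 5.38 in WT and of 5.94 to 7.26 in KO hearts. Cdkn1a, the cell cycle inhibitor p21, rose by 0.94, from 8.86 to 9.67 in WT to 9.99 to 10.52 in KO hearts, and Errfi1, a brake on epidermal growth factor receptors, by 0.63. For each of the 3 genes the young groups did not overlap. The share of all genes without overlap is not given here for this comparison, so it is open how common this was. As for Slc3a2, the calls of these 3 genes are not given under other settings. The median log2 difference of the list was 0.42 in young and 0.32 in newborn hearts, beside 0.033 and -0.049 over all genes. In newborn hearts 0 passed, and 7 were higher and 0 lower at an unadjusted p under 0.05, beside 1.45% and 7.62% of all genes.

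Within groups the 9 genes did not vary as a block. Correlations of their deviations from the group means over 24 arrays, which share the scaling of each array, were highest for Gstm2 with Gstm6 (Pearson r = 0.76), Mt1 with Mt2 (0.70), Gstm1 with Gstm3 (0.65) and Gstm7 with Mt1 (0.62), and lowest for Gstm2 with Mt1 (-0.15). Gstm3 stands here by its brightest probe set, whose identity was not tested. The genes most like Mt2 over the 24 arrays were Per2, a clock gene (r = 0.87), Hsd17b11 (0.83) and Slc10a6 (0.83). Those most like Mt1 were Plin4, a lipid droplet coat protein (0.86), Atf3, a stress-induced transcription factor (0.82), and Cdkn1a (0.81). Abca7 was most like Gstm1 (0.84) and Rps2 most like Gsta4 (0.84). Against marker means, the highest correlations were 0.66 for Gstm6 with atrial markers and 0.62 for Mt2 with adipocyte markers. These values describe the 24 arrays, and each like gene was picked as the highest among all genes tested.

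**Figure D5:**
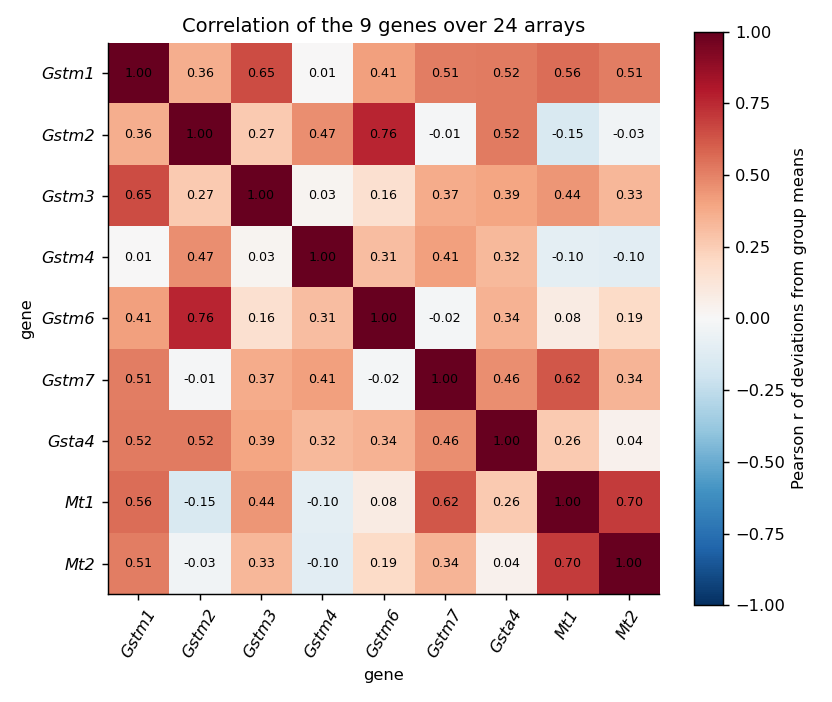
Pearson correlation (colour and number in each cell) between the 9 genes, computed over 24 arrays from each array's deviation from its group mean. Gstm2 with Gstm6 (0.76) and Mt1 with Mt2 (0.70) are the highest pairs.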

How the data were processed

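Ventricle RNA of 24 mouse hearts was hybridized to whole-transcript Affymetrix mouse arrays. The authors deposited log2 signals after RMA. Versions in the submitters' processing notes are 1.22 for oligo, 3.14 for limma and 2.15 for R. RMA is made to equalize the distributions of the arrays, so a change shared by most genes may be hidden in whole or in part. The deposited values were not fully equal, with array medians of 4.24 to 4.50. Of 35017 probe sets, 21118 named 1 gene, 1735 several and 12164 none. The platform's probe annotation gave the names, and 21085 were matched to a RefSeq gene with 0 symbols changed. The array holds 18819 such genes. Some genes are not reported here.

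The members and the gene lists were chosen with earlier results of these data known. All 10 members are named. Of the pathway lists, the text draws on genes that passed between genotypes and on the 3 largest rises and 3 largest falls with age among called genes whose groups do not overlap, and Mt3 and Mtf1 were added after their values had been seen. For likeness, the 3 genes of highest correlation per member were found.

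Differences were tested with limma 3.58.1 in R 4.3.3, with 1 mean per group over all 24 arrays, 20 residual degrees of freedom and p-values adjusted by Benjamini and Hochberg's method over these 18819 genes. All adjusted p-values come from this model unless another test is named. The comparisons share their groups. The number of arrays limits the precision, and a p-value sets a group difference against the spread between these samples within groups. Sex was not in the model, and no batch or scan date is given in the sources used here. The script was tested on simulated data. Alternatives were a filter at the 30th percentile of mean signal, median centring, quantile normalization, a variance trend, array weights, a replicate block, all probe sets, fewer arrays and marker covariates.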

Additional observations from a re-analysis of the deposited data

Results flagged for a closer look

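Over the 9 genes and 4 groups of 6 arrays, 36 sets of values were examined for a sample far from the others of its group, and 3 were found, where chance gives about 1 in 20. Mt2 stood at a log2 signal of 10.5 in newborn WT array 4, with the other 5 arrays between 9.47 and 9.82. Gstm6 stood at 5.51 in newborn KO array 3, with the others between 5.77 and 5.89. Gstm4 stood at 8.78 in young KO array 4, with the others between 8.50 and 8.60.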

How the results depend on the processing

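Of 1638 values of the 9 genes under the alternatives, 1593 kept their direction and their side of the threshold, 14 lost the call, 17 gained it and 14 changed sign. In newborn hearts the count of genes that passed between genotypes, 0 at first, was 4 without the arrays numbered 4, 2 without these and KO arrays 1 and 2, and 0 to 1 when arrays were left out in turn. In young hearts the count was 1, and it was 0 with a variance trend and robust moderation, with all probe sets tested, in the 12 young arrays alone, with the atrial or the adipocyte marker mean as a covariate and without newborn KO arrays 1 and 2, and 0 to 2 when arrays were left out in turn. The covariate and adipocyte settings give values only within an age, and the interaction has none from the arrays of a single age. The cause of these changes was not tested.

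Sign changes concerned small differences that did not pass. For Gstm6 the newborn KO difference was 0.012 after median centring and 0.014 after quantile normalization, and -0.086 to 0.10 with arrays left out. Its age difference in KO hearts was 0.048 and 0.054. For Gstm2 in newborn hearts the range was -0.085 to 0.021. For Gstm7 in young hearts the value was -0.037 after centring and -0.0085 to 0.068 with arrays left out. For Mt1 the interaction was 0.011 without newborn KO arrays 1 and 2, and -0.14 to 0.0039 with arrays left out.

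Over all genes, the newborn count between genotypes, 0, became 31 with array weights, 482 without the arrays numbered 4, 286 without these and KO arrays 1 and 2, 73 without WT array 4 and 49 without KO array 4. The young count, 192, became 19 in the 12 young arrays, 8 with the atrial and 15 with the adipocyte covariate, and 108 to 806 with arrays left out. The interaction count, 2, ran from 0 to 79, and the KO age count, 11110, was 17090 with all probe sets.

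The labels number the replicates, and whether these numbers pair the samples was not tested. Correlations between same-numbered arrays of the 2 genotypes ran from -0.44 to 0.13 in newborn and from -0.22 to 0.64 in young hearts. Differently numbered arrays were not compared. With the number as a replicate block, 0 genes passed in newborn and 203 in young hearts, against 0 and 192 without it, and 1 gene against 2 passed in the test of the genotype difference between ages. Of the 9 genes 0 and 1 passed, and the block changed no call of the 9 genes in any comparison.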
